A study of Mus musculus with 8 samples.

Results

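The genes described here encode integrins and the interstitial matrix they bind, together with the enzymes, inhibitors and chaperone that build or trim that matrix. The set was a list of 44 named genes, and their peaks were all called peaks of 7 deposited peak lists whose midpoint lay in the span of a listed gene, on the strand that held most of its called peaks. Of the 44 genes, 34 had at least 1 called peak. Together they held 5081 of the 978429 peaks in the 7 lists. The remaining 10 genes had none, namely Itga2, Itga4, Itga11, Col1a1, Col1a2, Col12a1, Postn, Bgn, Lox and Mmp2.

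The lists came from crosslinking and immunoprecipitation (CLIP) of RNA bound to Zmat3 in mouse embryonic fibroblasts. All lines carried E1A and HrasG12V, introduced with retroviruses. The 3 control lines also carried Cas9 and 1 negative control guide each (EV in control 1, SPA in control 2, ACOCA in control 3), with 3 days of puromycin selection and 10 further days of culture. The knockout was 1 line of genotype Zmat3-/-;E1A;HrasG12V with no guide, so it differed from the controls in Cas9 and guide as well as in Zmat3, and these cannot be told apart. RNA was recovered between 35 and 110 kDa after immunoprecipitation (IP) with an anti-Zmat3 antibody. Each of the 4 IPs had a matching input. The lists give each peak of an IP over input (4 lists) and each peak of a control IP over the knockout IP (3 lists, which share that 1 knockout library).

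Integrins are pairs of an alpha and a beta chain that span the cell membrane and tie the cytoskeleton to fibronectin, laminins or collagens outside the cell. Fibroblasts secrete most of the interstitial matrix, which is built from fibrillar collagens and glycoproteins such as fibronectin and is remodelled by metalloproteinases and their tissue inhibitors. Zmat3 is a zinc finger protein that binds RNA, is induced by p53 and is known for binding introns and altering splicing.

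The member genes held 623 of 129323 called peaks (0.482%) in the IP of control 1, 873 of 153768 (0.568%) in control 2, 603 of 122284 (0.493%) in control 3 and 883 of 167648 (0.527%) in the knockout. Without read counts in the lists, library depth is unknown. Over input, the median log2 fold of member peaks was 0.44, 0.21 and 0.08 in the 3 controls and −0.07 in the knockout, below the medians of all called peaks, which were 0.90, 0.60, 0.60 and 0.23. Over the knockout IP, member medians were 0.60, 0.74 and 0.58 against 1.18, 0.88 and 1.00 for all peaks. For scale, the highest peak of Mdm4, which encodes a p53 inhibitor, was 6.06, 5.32 and 5.71 over input in the controls and 1.23 in the knockout. Zmat3 itself had 42, 48 and 39 called peaks in the controls and 38 in the knockout, and 4, 16 and 1 of the control peaks were enriched over the knockout IP. Which part of Zmat3 the line lacks is not known here, so these peaks are no check of the deletion. Of 10 fibroblast markers, 6 had called peaks, 51, 59 and 44 in the controls and 48 in the knockout. Vim had 15, 18 and 13 in the controls and 21 in the knockout, Pdgfrb had 16, 12 and 10 against 2, and Thy1, Col1a1, Col1a2 and S100a4 were at 0 in all 4 IPs. Epithelial markers had 9, 10 and 12 peaks in the controls and 22 in the knockout. Among them Epcam had 9, 5 and 11 against 10, Krt18 0, 5 and 0 against 8, and Krt19 0 in each control against 3. The neural markers had 15, 16 and 13 peaks against 10, of which Map2 had 9, 8 and 4 against 0. The rest were counted for Syn1, at 6, 8 and 9 against 10. These are the counts of Timp1, whose peaks all lie inside the Syn1 span, so they cannot be read as a neural marker. The 5 endothelial markers had none. The part of these differences in the results below was not tested.

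The number of called peaks differed widely between member genes. Fn1, which encodes fibronectin, held 70, 74 and 59 called peaks in the control IPs and 79 in that of the knockout. Col18a1, encoding a collagen of basement membranes, held 58, 86 and 52 in the controls and 46 in the knockout. Tnc, encoding tenascin-C, held 46, 54 and 46 in the controls and 87 in the knockout. Per 100000 called peaks of the list, which takes the larger knockout list into account, Tnc had 35.6, 35.1 and 37.6 in the controls and 51.9 in the knockout. Timp2, an inhibitor of metalloproteinases, had 13.1, 20.2 and 7.36 in the controls and 36.4 in the knockout. Itgb3, the beta chain of a vitronectin receptor, had 6.96, 22.8 and 3.27 in the controls and 28 in the knockout, so the controls differed several-fold among themselves. On that scale the knockout lay above all 3 controls for 8 of the 34 members with a peak, and below all 3 for another 8, against 22.6% and 27.1% of all 14782 genes with a called peak. The members above were Fbln2, Fbn1, Itga7, Itgb3, Mmp14, Thbs1, Timp2 and Tnc, and those below were Adam17, Col18a1, Col5a1, Fn1, Itga3, Itgb5, Serpinh1 and Timp3. In 3 collagen genes most peaks came from control 2: Col5a2 had 11 peaks there and 0 in the other 3 IPs, Col6a2 had 5 against 0, and Col6a1 had 14 against 1, 1 and 2. Col5a1, with far more peaks, had 71, 70 and 43 in the controls and 58 in the knockout.

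**Figure D1:**
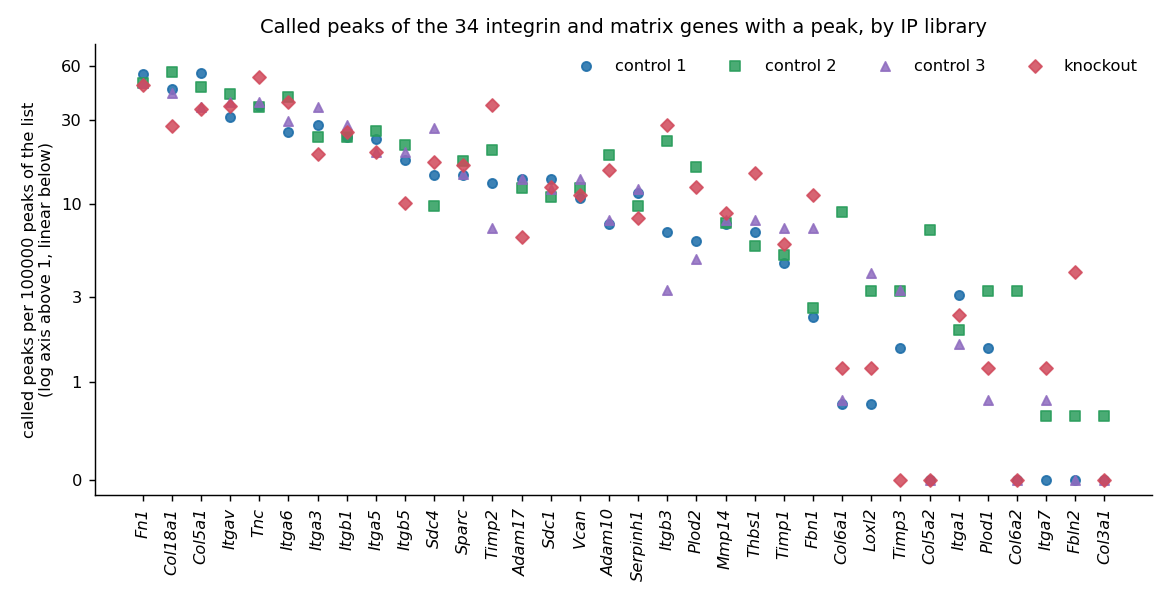
Called peaks of each of the 34 member genes with a peak, per 100000 called peaks of the list (log axis above 1, linear below), in the IPs of controls 1 to 3 and of the knockout (1 point per library). Fn1 and Col18a1 lie high in the controls, and Tnc is the highest gene of the knockout; the knockout point of Tnc, Timp2, Thbs1 and Fbn1 lies above the 3 controls, and that of Adam17 and Col18a1 below them.

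Peaks lay along the whole of the gene spans, with a larger share near the 3′ end than over all genes. The last 10% of the span held 17.8%, 19.9% and 19.6% of member peaks in the 3 controls and 16.9% in the knockout, against 13.0%, 15.1%, 13.7% and 13.2% of all peaks. Between 39.98% and 62.8% of the member peaks of one IP overlapped a member peak of another IP, against 22.3% to 33.97% of all called peaks. Of the 5081 member peaks, 499 also lay in the span of another gene. Most of these were in Tnc, with 265 of its 379 peaks, and others in Col5a1 (49 of 426) and Timp2 (41 of 175). They also included all peaks of Timp1 (inside the span of Syn1), of Timp3 (inside Syn3) and of Itga1.

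Few member peaks were enriched, taken here as a log2 fold of at least 3 with a −log10 p-value of at least 3, both as the authors gave them. Over input, 3, 5 and 2 member peaks passed in the 3 controls and 3 in the knockout, which is 0.482%, 0.573%, 0.332% and 0.340% of the members' peaks. Over all called peaks the shares were 1.02%, 1.05%, 0.494% and 0.316%. Over the knockout IP, 7, 10 and 1 member peaks passed (1.12%, 1.15% and 0.166%), against 0.621%, 1.09% and 0.648% of all peaks. The 31 enriched peaks merged into 26 sites in 13 genes, and 21 of the 26 sites were enriched in 1 list alone. No region of a member gene was enriched over both comparators in at least 2 controls, of 203 such regions over all genes. With a log2 fold of at least 2 there was 1 such member region, in Itga5, of 308 over all genes. With support from 1 control there were 3, in Col18a1, Itga6 and Itgav, of 1009, and all 3 came from control 2. Members held 0.482%, 0.568% and 0.493% of the called peaks of controls 1 to 3 over input, so none of these counts sets them apart.

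**Figure D2:**
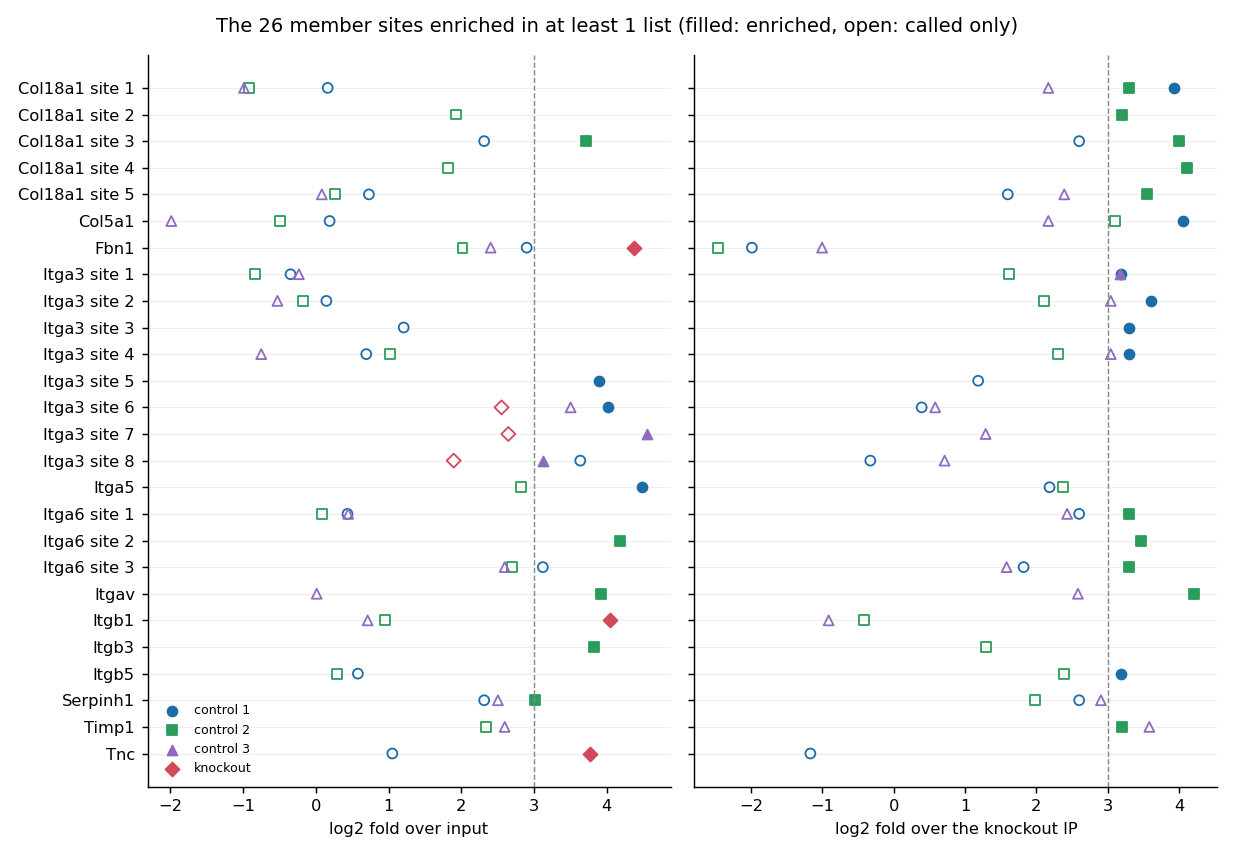
Log2 fold over input (left) and over the knockout IP (right) of the 26 member sites enriched in at least 1 list, with 1 symbol per library; filled symbols are enriched (log2 fold and −log10 p-value both at least 3), open symbols are called peaks that were not, and a missing symbol means that no peak was called. The dashed line marks a log2 fold of 3; 21 of the 26 sites have a single filled symbol.

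Among integrin alpha chains, the clearest sites lay in Itga5 and Itga6. Itga5 encodes the alpha chain of the classical fibronectin receptor. Its site at chr15:103352370-103352453 (mm10, minus strand) had a log2 fold over input of 4.48 in control 1 and 2.82 in control 2, and over the knockout IP of 2.18 and 2.37. Control 3 and the knockout had no called peak there, so the site rests on 2 of the 3 controls. Itga6 encodes an alpha chain of laminin receptors. Its site at chr2:71855713-71855790 (plus strand), 2637 nt from the 3′ end of the span, was called in all 3 controls, at 3.12, 2.69 and 2.60 over input and 1.82, 3.30 and 1.58 over the knockout IP, and not in the knockout. A second Itga6 site, at chr2:71816444-71816553, was called in control 2 alone, at 4.19 over input and 3.47 over the knockout IP. Another, 50 nt from the 5′ end of the span at chr2:71786936-71787028, reached 2.60, 3.30 and 2.43 over the knockout IP but 0.43, 0.09 and 0.44 over input. Itgav encodes the alpha chain of receptors that bind the RGD motif. Its site at chr2:83778885-83778947 had 3.92 over input and 4.20 over the knockout IP in control 2, and 0.01 and 2.58 in control 3.

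Itga3, another alpha chain of laminin receptors, showed 2 kinds of site within one gene. In a cluster between chr11:95060894 and chr11:95061767 (minus strand), controls 1 or 3 were high over input, and control 2 had no called peak at the enriched sites. At the first site, 95060894 to 95060940, control 1 had 3.90 over input and 1.18 over the knockout IP, and the knockout had no called peak. At the others the knockout was also raised over input, at 1.89 to 2.65. The site at 95061224 to 95061332 had 4.55 over input in control 3 and 2.65 in the knockout, and 1.29 over the knockout IP. The site at 95061137 to 95061191 had 4.02 and 3.50 over input in controls 1 and 3 and 2.55 in the knockout, and 0.39 and 0.58 over the knockout IP. The other kind was high over the knockout IP and low over input. The site at 95057981 to 95058104 had 3.60, 2.10 and 3.04 over the knockout IP, but 0.14, −0.18 and −0.53 over input. At 95053735 to 95053865 the values were 3.18, 1.62 and 3.17 over the knockout IP, and −0.35, −0.83 and −0.23 over input. Over all members, 13 of the 26 sites were enriched in a control over the knockout IP and in no control over input, and at 7 of these 13 every called control peak was below 1 over input. The share of such sites over all genes was not counted, so this split cannot be called particular to the members.

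Integrin beta chains had 1 enriched site each. Itgb1, the beta chain shared by most fibronectin, collagen and laminin receptors, had its enriched peak in the knockout, 428 nt from the 3′ end of the span (chr8:128733117-128733151). It was 4.04 over input in the knockout and 0.95 and 0.71 in controls 2 and 3, with no overlapping called peak in control 1. The wider site merged over the IPs (chr8:128732952-128733151) was also called in control 1, with 0.52, 1.05 and 0.71 in controls 1 to 3. Itgb3 had 1 enriched peak in control 2, at 3.82 over input and 1.30 over the knockout IP, with none called at that position in the other IPs. Itgb5 had a site 300 nt from the 3′ end (chr16:33948952-33949038) at 3.18 and 2.38 over the knockout IP in controls 1 and 2, but 0.58 and 0.30 over input.

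Of the collagens, Col18a1 held 5 enriched sites and Col5a1, which encodes a chain that limits fibril thickness, held 1. At chr10:77055579-77055821 Col18a1 had 3.92, 3.30 and 2.17 over the knockout IP, with 0.16, −0.92 and −0.99 over input. At chr10:77067110-77067167 it had 3.72 over input and 4.0 over the knockout IP in control 2, 2.31 and 2.60 in control 1, and no called peak in control 3 or the knockout. The Col5a1 site at chr2:28032645-28032739 had 4.06, 3.10 and 2.17 over the knockout IP, but 0.19, −0.50 and −1.99 over input. Col3a1, Col5a2, Col6a1 and Col6a2 had no enriched peak.

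Serpinh1, which encodes a collagen chaperone of the endoplasmic reticulum, held a site called in all 3 controls with similar values over both comparators. At chr7:99349518-99349581 (minus strand) the log2 fold was 2.31, 3.02 and 2.50 over input and 2.60, 1.98 and 2.90 over the knockout IP in controls 1 to 3, and no peak was called in the knockout. It was 1 of 2 member sites, with that of Itga6, where all 6 values were at least 1.5. There were 244 member sites called in all 3 controls, and over all genes 899 of 23443 such sites met this criterion (3.83%). The criterion was added after the values were seen.

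Among the glycoproteins the enriched peaks belonged to the knockout. Fbn1, which encodes fibrillin-1 of elastic microfibrils, had 4.37 over input in the knockout at chr2:125501516-125501722, with 2.90, 2.02 and 2.40 in the controls and −1.99, −2.46 and −1.0 over the knockout IP. Tnc had 3.78 in the knockout at chr4:64011991-64012127 and 1.05 in control 1, the one control with a peak there. Of the inhibitors, Timp1 had 1 enriched peak, at chrX:20872908-20872959, with 3.20 and 3.58 over the knockout IP and 2.34 and 2.60 over input in controls 2 and 3. No peak of Fn1, Thbs1, Sparc, Vcan, Mmp14, Adam10, Adam17, Timp2, Timp3, Sdc1 or Sdc4 was enriched in any list.

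The control IPs were then compared with the knockout IP gene by gene. The level of a gene in a list was the median log2 fold of its called peaks minus the median of all called peaks of that list, and genes with at least 5 called peaks in each list were tested with limma, with Benjamini-Hochberg adjustment over all 5246 genes. Of the 44 members, 22 could be tested, since 10 had no peak and 12 had too few. Of these, 8 were lower in the control IPs than the list median and 0 were higher, where 8.12% of all tested genes were lower and 6.12% higher. By an unadjusted p under 0.05, Plod2 also lay below 0 and Col18a1 and Adam17 above it. The 8 lower genes were the glycoprotein genes Fn1, Tnc, Thbs1 and Sparc, the inhibitor genes Timp1 and Timp2, the membrane-bound protease gene Mmp14 and the integrin beta chain gene Itgb1. The median difference of the 22 members was −0.29, against 0 for all genes. The test sets the 3 controls against 1 shared knockout IP, so it leaves out the spread of the knockout. In a gene-level fit with any 1 control left out, no gene of the series passed adjustment. An unadjusted limma p under 0.05 was found for 9 of 23, 13 of 22 and 6 of 23 members without control 1, 2 and 3. Over all genes tested the shares were 25.1%, 32.9% and 18.4%.

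Timp1 was farthest from the list median, at −3.96, −2.22 and −2.18 in controls 1 to 3. All 3 values were below 0, and control 1 was the lowest. Its mean difference was −2.78 (SE 0.39, n = 3 controls, limma adjusted p = 0.021). Tnc followed with −2.29, −1.96 and −2.16, which differed little between the controls. The mean was −2.14 (SE 0.14, limma adjusted p = 0.018), a level 4.39 times below the list median. Fn1 had −2.03, −1.75 and −2.00, with a mean of −1.93 (SE 0.13, limma adjusted p = 0.018). For Fn1, Tnc, Timp1 and Timp2 the median log2 fold was also below 0 in all 3 controls without subtracting the list median, in Timp2 by little (−0.23, −0.02 and −0.64). Counted by peak, 63 of 70, 66 of 74 and 55 of 59 Fn1 peaks were below 0, and so were 41 of 46, 51 of 54 and 40 of 46 Tnc peaks. Of all called peaks 11.4%, 16.5% and 15.1% were below 0. These are the peaks behind the gene levels, so the counts are not separate evidence.

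The other 5 genes were lower by a smaller amount. Timp2 had −1.42, −0.91 and −1.64, and Itgb1 had −1.65, −0.67 and −1.32 (limma adjusted p = 0.021 and 0.029). Thbs1, which encodes an adhesive glycoprotein that regulates TGF-beta and angiogenesis, had −1.17, −1.17 and −1.15 (limma adjusted p = 0.018). Mmp14, which cleaves collagen at the cell surface, had −1.30, −0.92 and −0.78, and Sparc, a collagen-binding glycoprotein, had −1.0, −0.68 and −1.28 (limma adjusted p = 0.025 and 0.029). In all 8 genes the 3 controls were below 0. The genes were called on these same values, which share 1 knockout IP, so the signs are no separate evidence.

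These calls are relative to the list median. Without that centring, the median of all genes was 1.02, and 3 members (Fn1, Tnc and Timp1) were lower than 0 and 14 were higher, where 0.839% of all genes were lower and 89.5% higher. Genes with more called peaks were more often called lower: 6.41% of genes with a mean of 5 to 10 peaks were lower, 6.83% with 10 to 20, 9.95% with 20 to 40 and 11.8% with 40 or more. The 8 members fell 2 in each of these ranges.

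**Figure D3:**
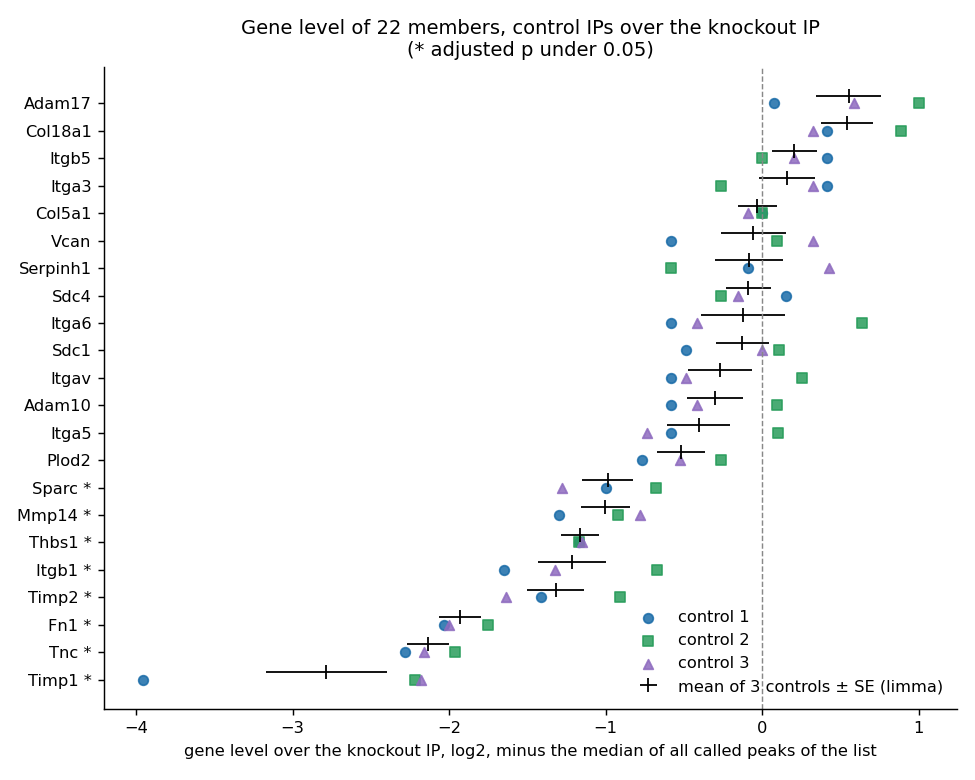
Gene level of the 22 tested members in the control IPs over the knockout IP, in log2 relative to the median of all called peaks of the list (dashed line at 0). Points are controls 1 to 3, the black bar is their mean ± SE from limma, and an asterisk marks an adjusted p under 0.05; the 8 marked genes have all 3 points below 0, from −0.67 for Itgb1 in control 2 to −3.96 for Timp1 in control 1.

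At the other end, Adam17, which sheds cell surface proteins such as growth factor precursors, had 0.08, 1.00 and 0.58, and Col18a1 had 0.42, 0.89 and 0.32. Their mean differences of 0.55 and 0.54 did not pass adjustment (limma adjusted p = 0.13 and 0.089). The remaining 12 tested members had mean differences between −0.52 (Plod2, a collagen lysyl hydroxylase) and 0.21 (Itgb5), and none passed. The integrin alpha chains among them lay close to the list median, with −0.41 for Itga5, −0.27 for Itgav, −0.12 for Itga6 and 0.16 for Itga3. For Itga5, Itgav and Itga6 control 2 was above the list median and controls 1 and 3 below it. Among the members with too few peaks to be tested, Fbn1 had −3.17, −1.96 and −0.42 from 3, 4 and 9 control peaks, and Timp3 had 1.00, 1.00 and 1.38 from 2, 5 and 4.

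The same called peaks were also tested site by site, so these calls are not separate evidence from the gene levels. Of the 244 member sites called in all 3 controls, which lay in 23 genes, 116 were lower in the control IPs than the list median and 24 were higher (limma, adjusted over 23443 sites), where 30.7% of all sites were lower and 13.8% higher. The mean log2 fold of 105 of the 116 was also below 0 without centring. In Fn1 44 of 45 sites were lower and in Tnc 24 of 25, spread over the whole span, and in Timp1 all 5. Itgb1 had 13 of 17 lower and Sparc 8 of 10. The lowest Fn1 site, at chr1:71605903-71606024, had −1.91, −2.10 and −1.49, and the lowest Timp1 site, at chrX:20873371-20873489, had −3.04, −2.18 and −1.45. The lowest Tnc site, at chr4:64017349-64017489, had −1.63, −1.90 and −2.36. Without control 3 no site of the series passed. Without control 1, 124 of 321 member sites were lower (38.6%), against 21.5% of all 39147 sites. Without control 2, 143 of 288 were lower (49.7%), against 29.1% of all 36530 sites.

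Higher sites lay mainly in other genes. Col18a1 had 8 of 18 sites higher and 1 lower, Itga3 had 4 of 17 higher and 1 lower, and Col5a1 and Itgb5 had 3 each. Itga6 and Sdc4, a heparan sulphate proteoglycan that acts with integrins, had 2 each, and Adam17 and Serpinh1 had 1 each. The highest was a Col18a1 site at chr10:77074344-77074475, with 3.60, 3.30 and 2.58 over the knockout IP (limma adjusted p = 0.00025). Over input it had 1.31, −0.31 and 0.01, and the knockout had no called peak there.

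**Figure D4:**
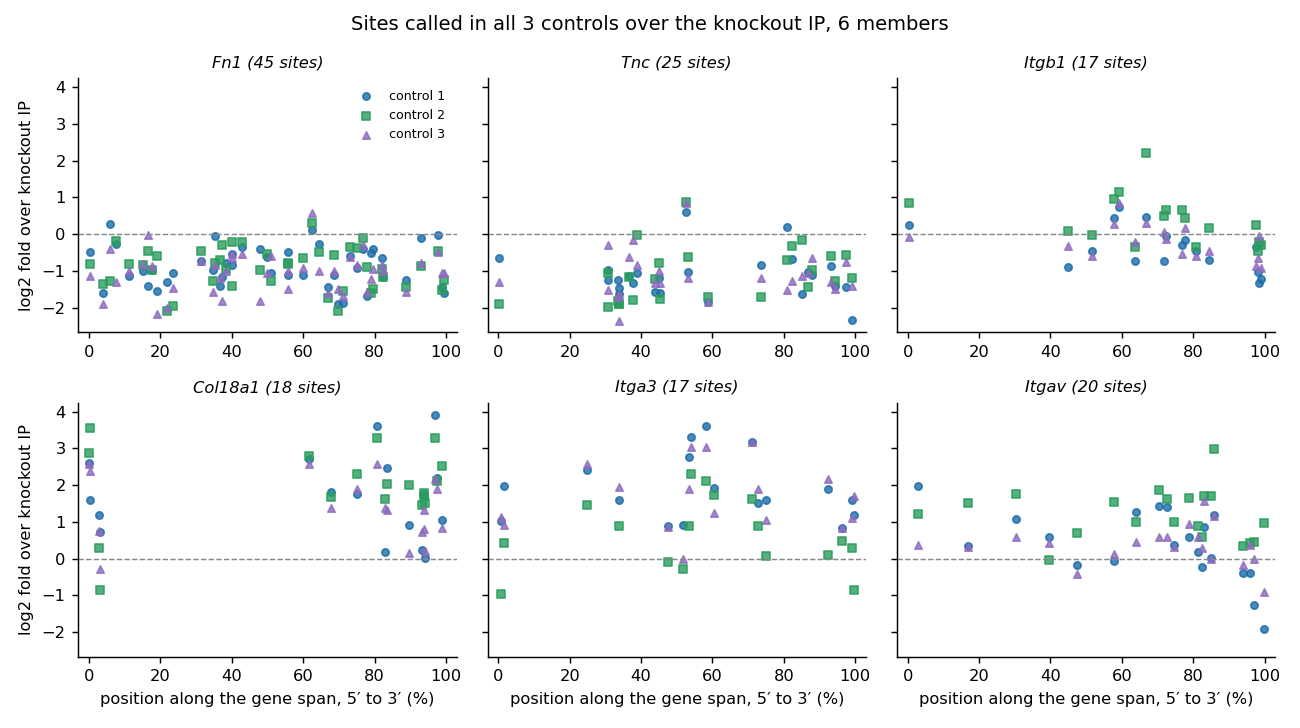
Log2 fold over the knockout IP (not centred) of each site called in all 3 controls, against its position along the gene span from 5′ to 3′ in percent, for Fn1 (45 sites), Tnc (25), Itgb1 (17), Col18a1 (18), Itga3 (17) and Itgav (20); symbols are controls 1 to 3 and the dashed line marks 0. Sites of Fn1 and Tnc lie below 0 along the whole span, and those of Col18a1 and Itga3 mostly above it.

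Over input, no difference between the controls and the knockout passed the test for any member. None of the 22 tested members passed in the comparison of 3 controls with 1 knockout, nor did any of the 4973 genes tested (limma, 0% in either direction, where 469 genes had an unadjusted p under 0.05). The test takes the lone knockout library to vary like the controls, and on simulated data it found 16 of 100 genes changed by a log2 of 1 and 93 of 100 changed by 2, so differences near 1 could be missed. Fn1 had −1.05, −0.99 and −1.22 in the controls and −1.30 in the knockout, so it was low over input in all 4 IPs. Tnc had −0.29, −0.32 and −0.36 in the controls and −0.78 in the knockout, and Timp1 had −1.05, −0.74 and −0.68 against −1.05. Of the 8 genes lower over the knockout IP, 6 had a higher mean over input in the controls than in the knockout, and the exceptions were Itgb1 and Sparc. Most genes of the series did so too: 31.6% of the 4973 had a difference below 0, and the median difference was 0.19. The 6 of 8 therefore does not set these genes apart. Thbs1 had 0.00, −0.17 and 0.16 in the controls and −0.78 in the knockout, a difference of 0.77 (SE 0.23, limma unadjusted p = 0.028, adjusted p = 0.49). Itgb1 ran the other way, with −0.58, −0.36 and −0.62 in the controls and 0.22 in the knockout, a difference of −0.74 (SE 0.22, limma unadjusted p = 0.026, adjusted p = 0.49). Serpinh1 had the lowest control mean over input after centring, close to that of Fn1, at −1.03, −0.96 and −1.29, with −1.46 in the knockout. Timp2 was the highest of those tested, at 1.00, 0.42 and 0.58, with 0.42 in the knockout. At site level, 0 of 205 member sites and 0 of 16093 sites passed in either direction (0%), and 20 member sites and 1452 sites of all had an unadjusted p under 0.05.

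**Figure D5:**
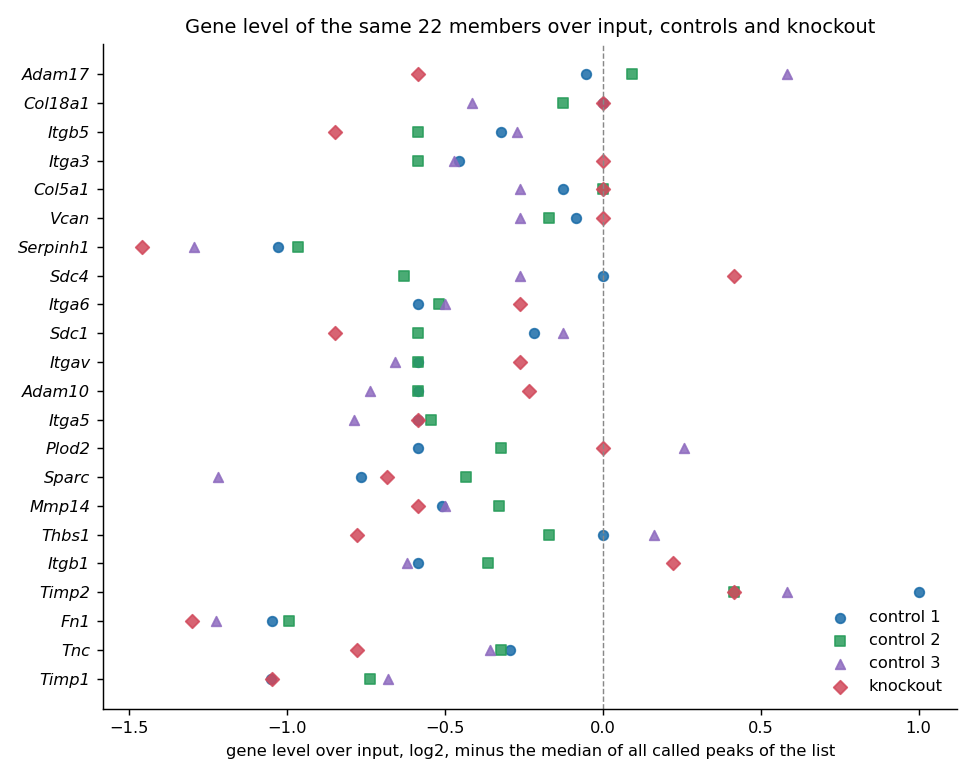
Gene level of the same 22 members over input, in log2 relative to the median of all called peaks of the list (dashed line at 0), in controls 1 to 3 and the knockout (1 point per library), ordered as in the plot over the knockout IP. Fn1 and Serpinh1 lie below −0.9 in all 4 IPs, and Itgb1 has the knockout above 0 and the 3 controls below it.

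From both comparisons a difference between the inputs can be approximated on the centred log2 scale. It was taken as the level over the knockout IP minus the control level over input plus the knockout level over input. This calculation was added after the data were seen, and it assumes that each IP was set against its own input. The knockout level is a median over other called peaks than the control levels (for Tnc 87 against 46, 54 and 46). The choice of peaks therefore also enters the result. The derived difference of control input minus knockout input was below 0 in all 3 controls for 10 of the 22 tested members (45.5%), against 43.3% of 4972 genes, and above 0 in all 3 for 3 members (13.6%), against 12.3%. These shares are close to those over all genes. The 10 were the 8 lower genes, Sdc1 and Itgb5. For the 8 lower genes the values ran from −3.95 to −0.09, and since their low level over the knockout IP is a term of the difference, its sign is no separate evidence. Its mean over the 3 controls was −3.01 for Timp1, −2.59 for Tnc, −2.14 for Fn1, −1.94 for Thbs1, −1.57 for Timp2, −1.14 for Mmp14, −0.86 for Sparc and −0.47 for Itgb1. The 3 members above 0 had means of 0.72 for Col18a1, 0.66 for Itga3 and 0.62 for Sdc4. Over all genes the median of this mean was −0.24, so it was not centred on 0. The inputs have no list of their own, so this difference could not be measured directly, and its part in the levels over the knockout IP was not tested.

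The RefSeq sequences (GRCm38.p6) upstream of the start sites of the 8 lower genes were searched on both strands for a pair of common promoter motifs. The first was GGGCGG, often bound by factors of the Sp family. The other was TATAAA, where the TATA-binding protein can sit. Of the 44 members 32 matched the promoter table, and of the 8 lower genes 6. Within 250 bases upstream, GGGCGG was present in 5 of these 6 genes (Itgb1, Mmp14, Timp1, Timp2 and Tnc), in 24 of the 32 matched members and in 33.0% of 27025 genes. TATAAA was present in Tnc, in 3 of the 32 members and in 13.0% of all genes. The motifs do not overlap each other. The sequences of the 2 genes farthest from the list median are shown 5′ to 3′ on the gene's strand, with the motif letters in capitals (CCGCCC is GGGCGG read on the other strand), for Tnc at chr4:64047016-64047265 (minus strand) and for Timp1 at chrX:20869916-20870165 (plus strand).
Tnc: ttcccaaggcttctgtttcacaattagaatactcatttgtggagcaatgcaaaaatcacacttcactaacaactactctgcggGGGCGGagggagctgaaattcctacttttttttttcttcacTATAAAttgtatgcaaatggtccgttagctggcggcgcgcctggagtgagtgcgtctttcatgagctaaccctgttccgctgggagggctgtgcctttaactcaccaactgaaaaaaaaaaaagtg
Timp1: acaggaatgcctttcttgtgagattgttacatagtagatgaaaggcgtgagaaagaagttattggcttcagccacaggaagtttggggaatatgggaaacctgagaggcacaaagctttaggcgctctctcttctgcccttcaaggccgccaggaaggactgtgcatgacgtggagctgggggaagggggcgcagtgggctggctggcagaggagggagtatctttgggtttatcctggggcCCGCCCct
Tnc holds both motifs, and Timp1 holds the GC box near the start site and no TATAAA in this window.

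Genes of 2 neighbouring structures were described in the same way. Of 22 focal adhesion genes 19 could be tested over the knockout IP, of which 7 were lower and 0 higher, with a median difference of −0.42, so lower calls were not confined to the integrin and matrix genes. Of 20 basement membrane genes 12 could be tested, of which 1 (Nid1) was lower and 0 higher, with a median of −0.03. In both lists 0 genes passed over input. The difference between these lists and the integrin and matrix genes was not tested.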

How the data were processed

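The log2 fold of each peak and its −log10 p-value were deposited by the authors for an IP over input or over the knockout IP, on mm10 per the submitters' processing notes. The lists have no header, so these units were read from the values: the deposited −log10 p-value stops at 400 and is 0 wherever the deposited log2 fold is below 0. The aligner, the peak caller, the input library used for each list and the treatment of peaks without comparator reads remain unknown (not given in the sources used here). Many peaks share identical log2 folds, and the commonest value makes up 11.8% to 22.4% of a list. No list holds counts, so no counting error could be given.

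Peaks were assigned by midpoint to RefSeq gene spans (GRCm38.p6). The strand that held most called peaks was that of the RefSeq promoter table for 26 of 26 members where it was known, and 2 peaks on the opposite strand were left out. Sites are called peaks that share at least 1 nt and the strand, each list taking its highest peak, and coordinates are 1-based. Gene and site values were centred on the list median and tested with limma 3.58.1 in R 4.3.3 (lmFit, eBayes, Benjamini-Hochberg over all features, call at adjusted p under 0.05), for genes with at least 5 called peaks in each list. The 3 control IPs came from separate lines with 1 IP each, so p-values measure the spread between these 3 libraries. An exact permutation of 1 against 3 libraries cannot give a p below 0.25. Tested on simulated data, the gene fit over the knockout IP recovered 96 of 100 genes changed by a log2 of 1, the site fit over the knockout IP 33 of 100, the gene fit over input 16 of 100 and the site fit over input 0 of 100. With a log2 change of 2 these numbers were 100, 100, 93 and 0. Noise was drawn independently for each library. For the fits over the knockout IP none was shared through that IP, so their recovery leaves out the spread of the knockout. The gene fit over the knockout IP also called 13 of 5046 unchanged genes.

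Values per library are given for members with an enriched peak, members called in a fit, those with the highest and lowest levels and those with most peaks. The members and all lists were chosen with earlier results of these data known.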

Additional observations from a re-analysis of the deposited data

Results flagged for a closer look

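Itgb1 over input had the knockout on the other side of the list median from the 3 controls: its gene level was −0.58, −0.36 and −0.62 in controls 1 to 3 and 0.22 in the knockout. That difference did not pass adjustment (limma adjusted p = 0.49), and no further test of it was made. The knockout value is 1 library, and the enriched knockout peak near the 3′ end of the gene is 1 of its 43 called peaks there.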

How the results depend on the processing

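The count of enriched member peaks over input, a mean of 3.33 per control, was 5.33 with a log2 fold of at least 2 and 0.667 with a −log10 p-value of at least 5, where the knockout count was 1. Over the knockout IP, with a mean of 6 per control, these counts were 12.7 and 1. Member regions enriched over both comparators, 0 in the report, numbered 1 with a log2 fold of at least 2, 3 with support by 1 control and 2 by the added criterion on all 6 values. Gene-level calls over the knockout IP were 8 lower and 0 higher in the report. With at least 10 peaks per list 5 of 18 members were lower, against 12.9% of all genes tested. Without centring 3 were lower and 14 higher, against 0.839% and 89.5% of all genes. With peaks in another gene's span left out, 7 of the 20 members tested were lower, against 7.18% of all genes. Tnc was among them, and Timp1 had no peak left to test. With at least 2 peaks per list 9 of 26 members were lower and 1 higher, against 6.0% and 6.29% of all genes. With the mean over a gene's peaks in place of the median 8 of 22 were lower and 1 higher, against 16.8% of all genes in each direction. Leaving out 1 control at a time gave 0 lower genes, and at site level 0 to 143 lower and 0 to 36 higher sites. Over all sites 29.1% were lower in the fit with 143, and 15.8% were higher in the fit with 36. Both site counts were 0 without control 3. Without centring they were 61 and 84 of 244, against 3.66% and 45.9% of all sites. Over input, 2 members (Adam17 and Thbs1) were higher without centring, where 11.5% of all genes were higher and 0.141% lower. Without centring 12 members changed sign over the knockout IP, to 0.72 for Adam10, 0.99 for Col5a1, 0.62 for Itga5, 0.90 for Itga6, 0.75 for Itgav, 0.020 for Mmp14, 0.50 for Plod2, 0.89 for Sdc1, 0.93 for Sdc4, 0.94 for Serpinh1, 0.035 for Sparc and 0.96 for Vcan, since 1.02 is then no longer subtracted. Fewer libraries leave fewer residual degrees of freedom; beyond that, the cause of these changes was not tested. Over input, values that were not called changed sign without centring to 0.066 for Adam10, 0.29 for Col18a1, 0.34 for Col5a1, 0.41 for Itga5, 0.20 for Itga6, 0.12 for Itgav, 0.25 for Plod2, 0.34 for Sparc and 0.29 for Vcan. With the mean over a gene's peaks they did so to 0.062 for Col5a1, 0.022 for Sdc1 and 0.089 for Vcan over the knockout IP, and to 0.072 for Col5a1, 0.097 for Sparc and −0.031 for Timp2 over input. Vcan over input turned to 0.051 without peaks in another gene's span. With 1 control left out, uncalled values crossed 0 for Itga6 (−0.50 to 0.11), Sdc1 (−0.24 to 0.053), Serpinh1 (−0.34 to 0.17) and Vcan (−0.25 to 0.21) over the knockout IP, and for Itga5 (−0.10 to 0.021) and Sparc (−0.31 to 0.082) over input. Of the values of single genes under an alternative, 287 kept their direction and their side of the threshold, 27 lost a call, mostly with a control left out, and 7 gained one. No paired analysis was possible because each value is already a ratio of an IP to its comparator, and the knockout shares only the number 1 with the controls. The lists give no depth, so peaks that were not called cannot be told apart from RNA that was not sampled.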
